A study of Rattus norvegicus with 46 samples.

Results

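The genes described here encode the mitochondrial ribosomal proteins, followed in the calf muscle of paralysed and ventilated rats. All genes whose platform symbol begins with Mrpl or Mrps and a digit were taken, which gave 70 of the 14317 genes named by the platform. They are held by 74 probe sets, and where a gene had several (Mrpl40, Mrpl41, Mrpl42 and Mrps11) the probe set with the highest mean over the 46 arrays was used. All 70 exceeded the median of their own array on all 46 arrays and entered every test. By the subunit that each protein is known to join, 46 belong to the large and 24 to the small subunit, with Mrps18a and Mrps30 counted to the large subunit despite their names. A further split separates the 42 that take the place of a bacterial ribosomal protein, called bacterial homologues here (27 large, 15 small), from the other 28, called mitochondrial here (19 large, 9 small). Mrps18a and Mrps18b, related in sequence to a bacterial protein but placed elsewhere in the ribosome, are counted among the 28. Mrps22 and Mrps36 were not analysed here.

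The muscle was the proximal gastrocnemius of 23 female Sprague-Dawley rats, with 1 array for each leg. Every rat was kept under isoflurane and mechanically ventilated as a model of intensive care. Its neuromuscular transmission was blocked with α-cobrotoxin, a toxin acting on the muscle acetylcholine receptor. In every rat a lever moved the left ankle 13.3 times a minute. It ran for 12 h of each day, or for 6 h in the rats with the least time on the ventilator. That leg is called loaded here and the opposite leg unloaded, so an unloaded leg comes from a paralysed rat whose other leg was moved. The legs fall into 3 windows of duration, 6 h to 4 d (13 rats), 5 to 8 d (4 rats) and 9 to 14 d (6 rats) so that a window joins rats of unequal duration. Untreated rats were not among the samples, and a change with duration is a change against rats already paralysed for 6 h to 4 d.

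A mitochondrial ribosome is built from proteins encoded in the nucleus and from ribosomal RNA encoded in the mitochondrial genome. It makes only the few respiratory chain and ATP synthase subunits that this genome encodes, while the other subunits are made by cytosolic ribosomes and imported. Transcription of nuclear genes for mitochondrial proteins is known to involve the factors NRF1 and GABP, an ETS family factor also called NRF2, together with YY1 and Sp1. In muscle the mitochondrial content is known to depend on contractile activity.

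Windows were compared within unloaded legs and within loaded legs, and the legs were compared within rats. The members did not move as a block. Between 6 h to 4 d and 9 to 14 d, 21 of the 70 rose and 11 fell in unloaded legs, and 19 rose and 19 fell in loaded legs. Of all genes, 28.7% rose and 16.9% fell in unloaded legs, and 29% rose and 15.2% fell in loaded legs. The shares of members called in unloaded legs were near those of all genes. Mrpl23 rose 2.4-fold in unloaded legs and Mrpl52 1.77-fold, while Mrpl50 fell by 0.65 on the log2 scale in loaded legs. In the unloaded legs 66 of 70 cytosolic ribosomal protein genes rose, where 28.7% of all genes did, and 38 of 73 nuclear genes of the respiratory chain and ATP synthase fell, where 16.9% of all genes did. With the date code of the labels as a block the cytosolic count was 67 and the respiratory chain count 12. In that fit 17 members passed in unloaded and 19 in loaded legs. There 15.3% of all genes were higher and 8.15% lower in unloaded legs, and 12.9% and 7.14% in loaded legs. Between the legs 1 member, Mrpl34, passed over all rats, a call that several settings ended.

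The promoters of 6 members are printed, the 3 largest rises and the 3 largest falls that passed the test in unloaded legs at 9 to 14 d among members with an entry in the RefSeq promoter table (build GRCr8). Mrpl23, Mrpl52 and Mrpl45 rose and Mrpl9, Mrpl42 and Mrps9 fell. Each window has 300 bases, 250 before and 50 after the annotated start of the gene, read 5′ to 3′ on the strand of the gene. Capitals mark matches, on either strand, to the NRF1 core GCATGCG, to CCGGAAG, bound by ETS factors such as GABP, and to the YY1 core GATGGCG.
Mrpl23 (chr1:207116680-207116979, plus strand): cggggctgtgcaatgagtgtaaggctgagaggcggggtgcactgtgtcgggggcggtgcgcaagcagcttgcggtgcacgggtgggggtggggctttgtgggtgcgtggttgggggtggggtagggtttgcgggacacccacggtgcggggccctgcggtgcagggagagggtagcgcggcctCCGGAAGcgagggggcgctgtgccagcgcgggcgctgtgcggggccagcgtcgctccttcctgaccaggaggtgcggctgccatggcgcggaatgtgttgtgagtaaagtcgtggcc
Mrpl52 (chr15:31852686-31852985, plus strand): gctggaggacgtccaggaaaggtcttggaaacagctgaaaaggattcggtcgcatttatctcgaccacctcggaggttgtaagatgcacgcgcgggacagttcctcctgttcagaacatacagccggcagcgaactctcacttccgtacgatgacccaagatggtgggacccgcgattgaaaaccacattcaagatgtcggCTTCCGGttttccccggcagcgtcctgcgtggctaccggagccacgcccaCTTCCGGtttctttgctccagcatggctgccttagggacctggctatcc
Mrpl45 (chr10:82804789-82805088, plus strand): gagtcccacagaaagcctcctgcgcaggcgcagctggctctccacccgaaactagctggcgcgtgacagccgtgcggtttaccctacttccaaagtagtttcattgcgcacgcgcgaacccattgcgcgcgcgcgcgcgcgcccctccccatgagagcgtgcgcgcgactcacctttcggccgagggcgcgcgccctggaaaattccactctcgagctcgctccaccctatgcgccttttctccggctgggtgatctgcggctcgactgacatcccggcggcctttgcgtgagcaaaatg
Mrpl9 (chr2:184770817-184771116, plus strand): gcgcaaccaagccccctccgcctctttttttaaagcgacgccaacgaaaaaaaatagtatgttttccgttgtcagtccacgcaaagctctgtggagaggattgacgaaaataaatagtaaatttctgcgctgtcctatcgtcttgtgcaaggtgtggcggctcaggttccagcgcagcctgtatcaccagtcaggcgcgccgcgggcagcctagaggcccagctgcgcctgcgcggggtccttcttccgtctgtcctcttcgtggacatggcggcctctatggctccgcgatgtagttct
Mrpl42 (chr7:32028473-32028772, minus strand): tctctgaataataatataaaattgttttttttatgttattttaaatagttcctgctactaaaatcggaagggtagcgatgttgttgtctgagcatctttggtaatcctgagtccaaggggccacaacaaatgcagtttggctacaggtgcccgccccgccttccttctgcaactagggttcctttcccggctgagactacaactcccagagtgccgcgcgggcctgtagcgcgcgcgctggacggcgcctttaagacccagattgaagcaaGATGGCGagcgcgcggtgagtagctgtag
Mrps9 (chr9:52605428-52605727, plus strand): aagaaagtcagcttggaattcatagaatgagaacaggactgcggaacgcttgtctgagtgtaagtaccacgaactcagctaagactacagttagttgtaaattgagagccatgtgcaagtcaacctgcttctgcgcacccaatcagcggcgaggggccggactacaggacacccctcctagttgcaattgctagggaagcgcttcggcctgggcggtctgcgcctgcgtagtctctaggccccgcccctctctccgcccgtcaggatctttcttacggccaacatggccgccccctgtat

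The promoter of Mrpl23 held 1 match to CCGGAAG, 67 bases before the start, and that of Mrpl52 held 2, at 49 bases before the start and at 2 bases after it. The promoter of Mrpl42 held 1 match to GATGGCG, 22 bases after the start. None of the 3 motifs was matched in the windows of Mrpl45, Mrpl9 and Mrps9, which says only that these letters are not in these windows.

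Promoter windows were matched for 57 of the 70 members. CCGGAAG was present in 31.6% of them (18 of 57), against 8.75% of all 33469 promoters of the table. The promoters of the table were not limited to genes tested on the arrays, as the members were. GATGGCG was present in 19.3% (11 of 57) against 3.89%, and GCATGCG in 10.5% (6 of 57) against 3.33%. At least 1 of these 3 motifs was present in 49.1% of the members' windows (28 of 57) and in 14.5% of all windows. The Sp1 core GGGCGGG was present in 31.6% against 22.7%, and TATAAA in 12.3% against 14.2%. No match to a motif overlapped a match to another motif in these windows. The median share of G and C was 56% in the members' windows and 51.7% in all windows, so matches rich in G and C are compared across different base compositions. A match describes letters and not a bound site.

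The ETS motif was present in 7 of the 16 members with a window that rose in unloaded legs at 9 to 14 d, in 2 of the 9 that fell and in 9 of the 32 that did not pass the test. The YY1 core was present in 2 of 16, 4 of 9 and 5 of 32, and the NRF1 core in 1 of 16, 0 of 9 and 5 of 32. Of the 11 members with a YY1 core, 9 have it after the start of the gene. The ETS and YY1 motifs were thus present in some promoters of each group.

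For 18 of the 57 members (31.6%) another gene of the table starts within 1000 bases upstream on the opposite strand, against 11% of all promoters (3695 of 33469). These promoters too were not limited to genes tested on the arrays. Mrpl46 and Mrps11 form such a pair with each other, with starts 234 bases apart. Neither passed the test in unloaded legs at 9 to 14 d (log2 difference 0.05, SE 0.11, and 0.14, SE 0.09). Mrpl49 lies 186 bases from Fau, which encodes a ubiquitin-like protein fused to a cytosolic ribosomal protein. Fau rose by 0.76 (SE 0.07, adjusted p 1.1e-08) there and Mrpl49 differed by 0.18 (SE 0.16, adjusted p 0.374). Of the 13 members whose partner was tested, 1 passed together with its partner, 1 passed alone, 4 did not pass while the partner did, and for 7 neither passed. The single case was Mrpl18 with Tcp1, a subunit of the cytosolic chaperonin, which start 425 bases apart and rose by 0.39 (SE 0.13, adjusted p 0.0172) and 0.54 (SE 0.11, adjusted p 0.000431).

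The deposited values are on the log2 scale and ran from 1.92 to 14.38, with medians of the arrays from 6.07 to 6.20. The muscle fibre markers had a mean level of 12.72 to 13.58 on all arrays. Since RMA gives all arrays nearly the same distribution, a change that most transcripts share would be removed in part. In whole muscle, fewer cells of a type and less RNA per cell cannot be told apart. The labels carry 5 date codes, whose meaning they do not state. Code 3 holds 10 rats of all windows (4, 2 and 4), code 5 holds 2 rats of 5 to 8 d and 2 of 9 to 14 d, and the other 9 rats, all of 6 h to 4 d, carry the remaining codes. Window and date code are therefore partly confounded, and values with the date code as a block and within code 3 are given beside the counts.

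In unloaded legs, 32 of the 70 members differed between 9 to 14 d and 6 h to 4 d at an adjusted p under 0.05 (limma, Benjamini-Hochberg over 9289 genes). Of these, 21 (30%) were higher and 11 (15.7%) lower at 9 to 14 d, against 28.7% and 16.9% of all genes tested. The shares of members called are thus near those of all genes. The median difference was 0.02 over the members and 0.07 over all genes, and the members ran from -0.52 to 1.26. Fitted with a block for the date code, 17 members passed (12 higher, 5 lower; 17.1% and 7.14%, against 15.3% and 8.15% of all genes), of which 16 were among the 32. Within date code 3 alone, with 4 rats against 4, 7 passed, Mrpl13, Mrpl21, Mrpl23, Mrpl36, Mrpl52, Mrps17 and Mrps21, all higher. An unadjusted p under 0.05 (limma) was reached there by 27.1% of the members and 27.7% of all genes. All 32 kept their sign under both settings. After a further cyclic loess scaling between arrays the split was 19 higher and 18 lower, against 24.1% and 21.6% of all genes, and the median of the members was -0.09.

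**Figure D1:**
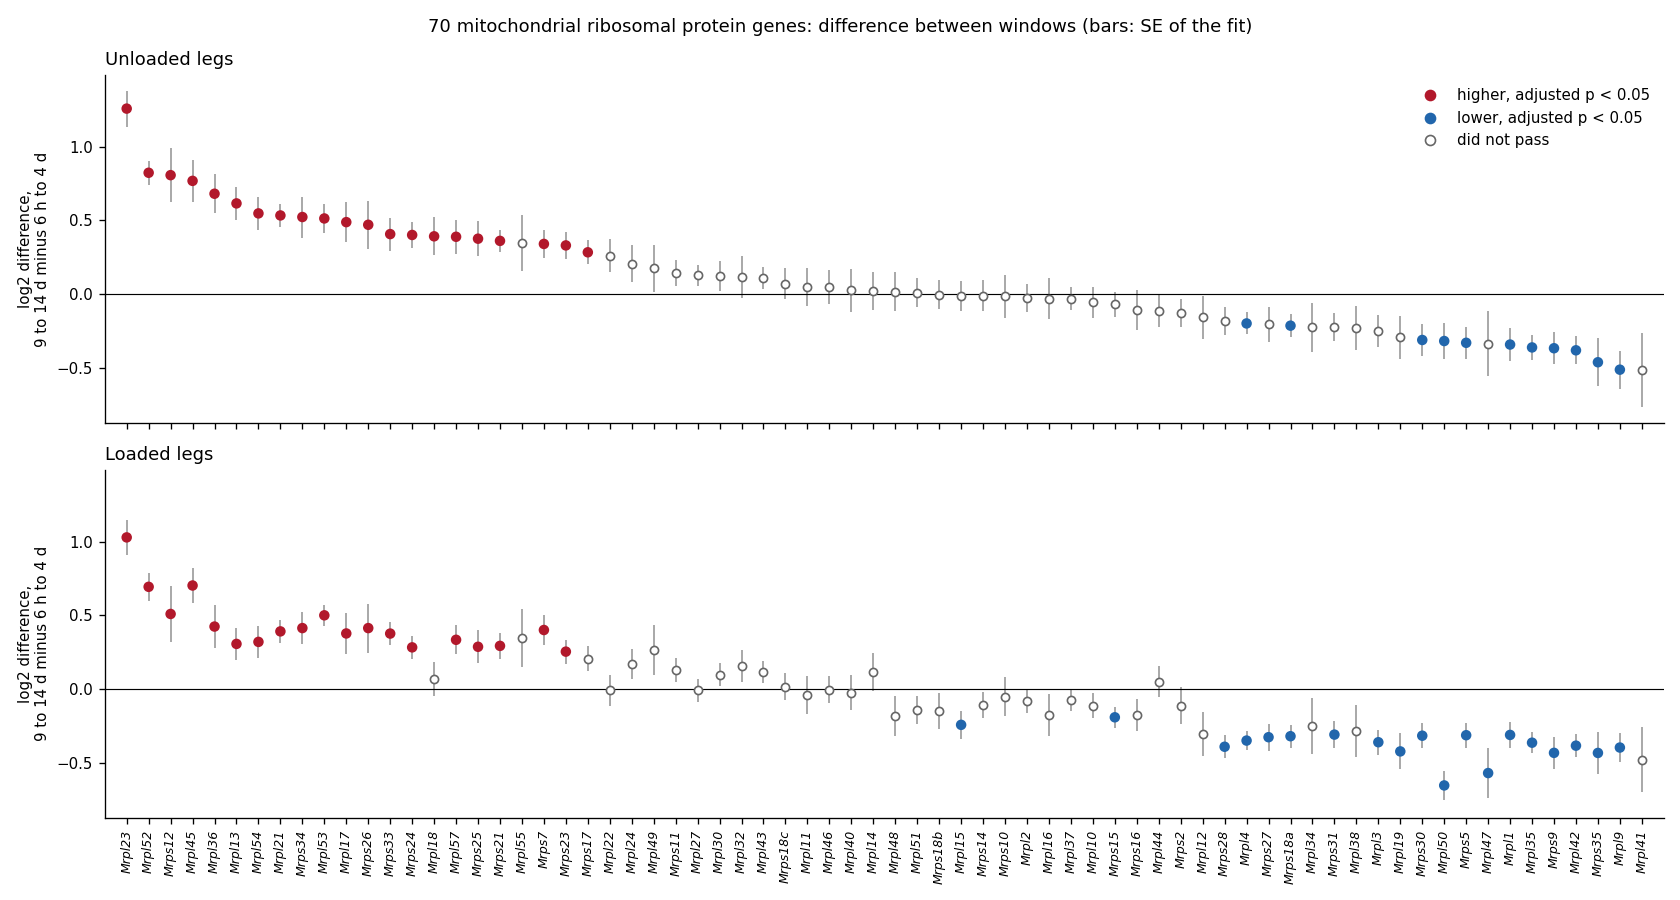
Log2 difference between 9 to 14 d and 6 h to 4 d for each of the 70 members, in unloaded legs (top) and loaded legs (bottom), in the order of the unloaded legs. Points are estimates of the fit, bars are its SE, and filled points passed an adjusted p of 0.05; 21 rose and 11 fell in unloaded legs, 19 rose and 19 fell in loaded legs.

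Mrpl23, the homologue of a bacterial protein beside the exit of the polypeptide tunnel (probe set 10712501), showed the largest rise. Its log2 value in unloaded legs was 9.48 at the lowest, 9.68 at the median and 10.19 at the highest at 6 h to 4 d, and 10.76, 11 and 11.15 at 9 to 14 d. At 5 to 8 d the 4 rats read 10.28, 10.54, 11.06 and 11.16. All later arrays thus lay above all 13 arrays of the shortest window. The difference was 1.26 (SE 0.12, adjusted p 3.54e-08) at 9 to 14 d and 1.02 (SE 0.14, adjusted p 1.29e-05) at 5 to 8 d. Loaded legs ran from 9.48 to 10.63 at 6 h to 4 d and from 10.75 to 11.08 at 9 to 14 d, again without overlap, with a difference of 1.03 (SE 0.12, adjusted p 5.83e-07). With the date code as a block the difference was 1.12 in unloaded legs (adjusted p 0.000127) and 0.77 in loaded legs (adjusted p 0.0019).

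Mrpl52, a large-subunit protein without a bacterial homologue, was the next largest. In unloaded legs it ran from 9.68 over a median of 9.99 to 10.28 at 6 h to 4 d and from 10.60 over 10.81 to 11.12 at 9 to 14 d. The 4 rats of 5 to 8 d read 10.40, 10.59, 10.61 and 10.73. No array of the later windows reached down to those of the shortest window. The difference was 0.82 at 9 to 14 d (SE 0.08, adjusted p 6.32e-08) and 0.69 in loaded legs (SE 0.10, adjusted p 6.08e-06), where 9.84 to 10.41 at 6 h to 4 d stood against 10.55 to 11.19.

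Mrps12, the homologue of the bacterial protein at the decoding centre of the small subunit, was more scattered. In unloaded legs it ran from 8.20 over 8.59 to 9.52 at 6 h to 4 d and from 8.99 over 9.64 to 9.96 at 9 to 14 d, so the windows overlapped. The 4 rats of 5 to 8 d read 9.03, 9.76, 9.85 and 9.87. The difference was 0.81 (SE 0.18, adjusted p 0.001) at 9 to 14 d and 0.91 (SE 0.21, adjusted p 0.00184) at 5 to 8 d. In loaded legs it was 0.51 (SE 0.19, adjusted p 0.0327) at 9 to 14 d, and this call was lost without rat 45, 47, 49, 57 or 59 in turn, with differences from 0.45 to 0.66 over all single omissions. It was 0.29 (adjusted p 0.476) once the date code was a block, and 0.64 (adjusted p 0.0317) in unloaded legs.

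Mrpl45, which is known to lie at the tunnel exit and to anchor the mitochondrial ribosome to the inner membrane, also rose in both legs. Unloaded legs ran from 9.49 over 10.10 to 10.64 at 6 h to 4 d and from 10.40 over 10.97 to 11.30 at 9 to 14 d, with a small overlap. The rats of 5 to 8 d read 10.45, 10.70, 10.94 and 11.14. The difference was 0.77 (SE 0.14, adjusted p 0.000177) in unloaded and 0.70 (SE 0.12, adjusted p 5.5e-05) in loaded legs. It stayed past the threshold with the date code as a block (0.68, adjusted p 0.00493, and 0.62, adjusted p 0.00976), and within date code 3 alone it was 0.68 (adjusted p 0.0741) and 0.65 (adjusted p 0.0947).

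The other 6 of the 10 largest rises in unloaded legs were Mrpl36 (0.68), Mrpl13 (0.62), Mrpl54 (0.55), Mrpl21 (0.53), Mrps34 (0.52) and Mrpl53 (0.51). Mrpl36, Mrpl13 and Mrpl21 have bacterial homologues, while Mrpl54, Mrps34 and Mrpl53 do not. In loaded legs all 6 also passed, with differences of 0.42, 0.31, 0.32, 0.39, 0.41 and 0.50 in the same order. The arrays of the windows did not overlap in unloaded legs for Mrpl21, which ran from 9.49 to 9.99 and from 10.10 to 10.49, nor for Mrpl54, which ran from 11.42 to 11.70 and from 11.76 to 12.55. Mrps34 was 0.24 (adjusted p 0.17) and Mrpl53 0.32 (adjusted p 0.0528) in unloaded legs with the date code as a block, and the other 4 passed there. In loaded legs, of these 6, Mrpl53 alone passed with that block (0.36, adjusted p 0.00909).

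**Figure D2:**
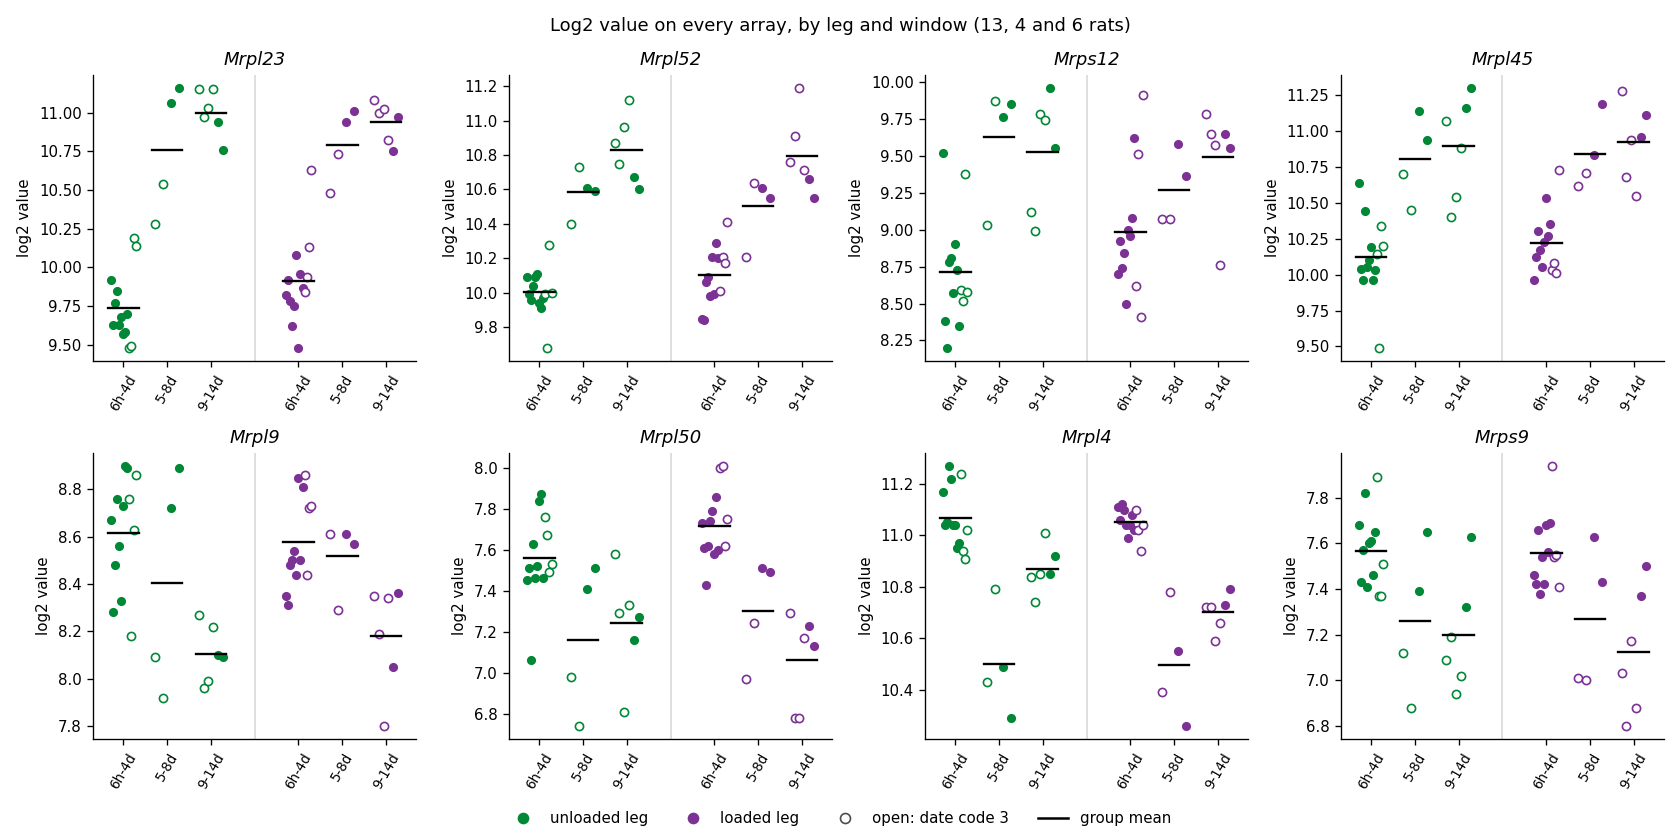
Log2 value of 8 members on every array (points), by leg and window, with black bars for group means of 13, 4 and 6 rats and open points for date code 3. Mrpl23 and Mrpl52 at 9 to 14 d lie above all arrays of 6 h to 4 d in both legs, while Mrps12, Mrpl45 and Mrpl9 overlap between these windows in at least 1 leg.

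Mrpl9, a large-subunit protein with a bacterial homologue, showed the largest fall that passed in unloaded legs. It ran from 8.18 over 8.67 to 8.90 at 6 h to 4 d and from 7.96 over 8.10 to 8.27 at 9 to 14 d. The 4 rats of 5 to 8 d were split, with 7.92 and 8.09 against 8.72 and 8.89. The lower pair carries date code 3 and the higher pair date code 5. The difference at 9 to 14 d was -0.51 (SE 0.13, adjusted p 0.00284) in unloaded and -0.40 (SE 0.10, adjusted p 0.00236) in loaded legs, and it passed with the date code as a block in both (-0.61, adjusted p 0.0129, and -0.53, adjusted p 0.00719).

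Mrpl42, a large-subunit protein found only in mitochondrial ribosomes, is held by 2 probe sets. Its brighter probe set ran from 12.40 over 12.68 to 12.89 at 6 h to 4 d and from 11.90 over 12.39 to 12.46 at 9 to 14 d in unloaded legs, a small overlap. The difference was -0.38 (SE 0.09, adjusted p 0.00239) in unloaded and -0.38 (SE 0.08, adjusted p 0.000463) in loaded legs. The other probe set gave -0.28 (SE 0.08, adjusted p 0.00753) and -0.45 (SE 0.08, adjusted p 0.000177), so both probe sets passed in both legs. With the date code as a block the brighter probe set was -0.22 (adjusted p 0.138) in unloaded and -0.28 (adjusted p 0.031) in loaded legs.

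Mrps9, the homologue of a bacterial small-subunit protein, ran from 7.37 over 7.57 to 7.89 and from 6.94 over 7.14 to 7.63 in unloaded legs. The difference was -0.37 (SE 0.11, adjusted p 0.00918) there and -0.43 (SE 0.11, adjusted p 0.00254) in loaded legs. It was larger with the date code as a block, -0.49 (adjusted p 0.00659) and -0.65 (adjusted p 0.000605).

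The other falls in unloaded legs were Mrps35 (-0.46), Mrpl35 (-0.36), Mrpl1 (-0.34), Mrps5 (-0.33), Mrpl50 (-0.32), Mrps30 (-0.31), Mrps18a (-0.21) and Mrpl4 (-0.20). Mrpl1 is the homologue of the mobile stalk protein of bacterial ribosomes and Mrpl4 that of a protein lining the polypeptide tunnel. In loaded legs all 8 passed as well, with -0.43, -0.36, -0.31, -0.31, -0.65, -0.32, -0.32 and -0.35 in the same order. Several of these calls in unloaded legs were lost on leaving out single rats. They were Mrps35 without rat 47 or 51 (range over all omissions -0.55 to -0.43), Mrpl1 without rat 49 or 51 (-0.41 to -0.26) and Mrps30 without rat 49 or 57 (-0.38 to -0.27). Mrps18a was lost without rat 49 or 51 (-0.24 to -0.18), and Mrpl50 without rat 23, 27, 31, 49, 57 or 59 (-0.39 to -0.23). In the fit with the date code block Mrpl1, Mrps5 and Mrpl50 passed in unloaded legs, and Mrps35, Mrpl35, Mrps30, Mrps18a and Mrpl4 did not.

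Mrpl41, a large-subunit protein of mitochondria, had the lowest estimate of all members in unloaded legs, -0.52 (SE 0.25), with an adjusted p of 0.0957. Its other probe set gave -0.55 (SE 0.25, adjusted p 0.0708) there and -0.52 (SE 0.21, adjusted p 0.0444) in loaded legs. Mrpl40 and Mrps11, the remaining members with 2 probe sets, passed with neither in either leg.

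In loaded legs, 38 of the 70 members differed between 9 to 14 d and 6 h to 4 d, 19 (27.1%) higher and 19 (27.1%) lower, against 29% and 15.2% of all genes. The median was -0.03 over the members and 0.08 over all genes. A block for the date code left 19 (7 higher, 12 lower; 10% and 17.1%, against 12.9% and 7.14% of all genes), and 18 of these were among the 38. Within date code 3 alone 5 passed, Mrpl23 and Mrpl52 higher and Mrpl50, Mrps28 and Mrps9 lower. An unadjusted p under 0.05 (limma) was reached there by 31.4% of the members and 23.5% of all genes. The sign of 36 of the 38 was kept under both settings, and Mrps25 (0.29) and Mrps26 (0.41) turned to -0.06 each with the block. After cyclic loess the split was 8 higher and 25 lower (11.4% and 35.7%), against 22.8% and 20.4% of all genes.

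Mrpl50, a large-subunit protein found only in mitochondrial ribosomes, fell most in loaded legs. It ran from 7.43 over 7.73 to 8.01 at 6 h to 4 d and from 6.78 over 7.15 to 7.29 at 9 to 14 d, without overlap, and the 4 rats of 5 to 8 d read 6.97, 7.24, 7.49 and 7.51. The difference was -0.65 (SE 0.10, adjusted p 2.01e-05) and -0.87 (adjusted p 0.000104) with the date code as a block. Mrpl47 followed with -0.57 (SE 0.17, adjusted p 0.00841), from arrays of 7.92 to 9.39 against 7.91 to 8.53. Of its 13 arrays at 6 h to 4 d, 4 lay no higher than the highest array at 9 to 14 d, and with the block it was -0.29 (adjusted p 0.279). Mrpl4 and Mrpl35 were the other members with no overlap downward in loaded legs, at 10.94 to 11.12 against 10.59 to 10.79 and at 10.42 to 10.76 against 10.09 to 10.35.

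Members with non-overlapping arrays between 6 h to 4 d and 9 to 14 d were few. In unloaded legs 6 lay wholly higher, Mrpl21, Mrpl23, Mrpl52, Mrpl54, Mrpl57 and Mrps24, and 0 wholly lower, against 7.35% and 2.52% of all genes. In loaded legs 4 lay wholly higher, Mrpl23, Mrpl52, Mrpl53 and Mrps33, and 3 wholly lower, against 5.29% and 1.95% of all genes. Mrpl23 and Mrpl52 were in both groups.

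Of the members called at 9 to 14 d, 30 were called in both legs with the same direction, 19 higher and 11 lower. These are 93.8% of the members called in unloaded legs and 78.9% of those called in loaded legs, where the shares over all genes were 78.6% and 80.9%. Both legs come from the same rats. Mrpl18 and Mrps17 passed in unloaded legs and not in loaded legs. Mrpl15, Mrpl19, Mrpl3, Mrpl47, Mrps15, Mrps27, Mrps28 and Mrps31 passed in loaded legs and not in unloaded legs, all lower. None of these 10 passed the test of the difference between the legs' changes.

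At 5 to 8 d, with 4 rats, 22 members differed from 6 h to 4 d in unloaded legs, 16 higher (22.9%) and 6 lower (8.57%), against 23.6% and 12.3% of all genes. In loaded legs 27 differed, 12 higher (17.1%) and 15 lower (21.4%), against 26.9% and 12.0% of all genes. Without rat 53 the count in unloaded legs was 12, and with array quality weights the counts were 41 and 42. The share of all genes called with these weights is not given here. A block for the date code left 6 and 9 members, with 4.29% higher and 4.29% lower in unloaded legs (5.39% and 2.76% of all genes) and 1.43% and 11.4% in loaded legs (6.0% and 3.15% of all genes). Within date code 3, with 2 rats of 5 to 8 d, 0 passed in both legs (limma), where 10 members in unloaded and 8 in loaded legs had an unadjusted p under 0.05 (14.3% and 11.4%, against 15.1% and 12.6% of all genes). After cyclic loess the splits were 9 higher and 18 lower and 5 higher and 26 lower, against 17.3% and 17.7% and against 18.6% and 17.7% of all genes. In both legs 16 members were called in the same direction, 10 higher and 6 lower. These are 72.7% and 59.3% of the members called in unloaded and loaded legs, against 80.6% and 74.3% over all genes.

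The largest rises at 5 to 8 d were Mrpl23, Mrps12 and Mrpl45 in unloaded legs (1.02, 0.91 and 0.68) and Mrpl23, Mrpl45 and Mrps34 in loaded legs (0.88, 0.62 and 0.55). The largest falls were Mrpl4, Mrps27 and Mrpl48, with -0.57, -0.41 and -0.40 in unloaded and -0.56, -0.52 and -0.56 in loaded legs. Of these rises, Mrpl23 alone passed with the date code as a block, in both legs. Of the falls, Mrpl4 passed with that block in both legs, Mrpl48 in loaded legs only and Mrps27 in neither. Mrpl4 in unloaded legs read 10.29, 10.43, 10.49 and 10.79 at 5 to 8 d, below all 13 arrays of 6 h to 4 d (10.91 to 11.27). At 9 to 14 d it read 10.74 to 11.01, which overlaps both groups. The call of Mrps27 in unloaded legs was lost without rat 41, 53 or 55 (range -0.54 to -0.32). That of Mrpl48 there was lost in 14 of the 23 single omissions (range -0.53 to -0.25), and in loaded legs without rat 41 (range -0.70 to -0.37).

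Across both later windows and both legs, 12 members (17.1%) passed all 4 comparisons with 6 h to 4 d, against 21.9% of all genes. Mrpl17, Mrpl21, Mrpl23, Mrpl45, Mrpl52, Mrpl53, Mrpl57, Mrps33 and Mrps34 were higher throughout, and Mrpl35, Mrpl4 and Mrpl50 lower throughout. With the date code as a block, Mrpl23 alone of these 12 passed all 4 comparisons. Within date code 3 Mrps33 at 5 to 8 d turned from 0.35 to -0.02 in unloaded and from 0.28 to -0.03 in loaded legs. Another 25 members (35.7%) passed none of the 4, against 35% of all genes. These comparisons share the rats of 6 h to 4 d within a leg.

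Between 9 to 14 d and 5 to 8 d, 0 members passed in either leg, where 0.226% of all genes (21 of 9289) passed in unloaded and 0.226% (21) in loaded legs. An unadjusted p under 0.05 was reached by 8 members in unloaded and 10 in loaded legs (11.4% and 14.3%, against 15.6% and 14% of all genes). The smallest adjusted p in unloaded legs was that of Mrpl4, which was 0.37 higher at 9 to 14 d (SE 0.10, adjusted p 0.0791). In loaded legs Mrps18a was 0.38 lower and Mrps5 0.39 lower (differences -0.38, SE 0.10, adjusted p 0.116, and -0.39, SE 0.11, adjusted p 0.12). With array quality weights 12 members passed in unloaded legs and 1 in loaded legs, and the shares of all genes with these weights are not given here. Within date code 5, with 2 rats against 2, 0 passed in both legs, and 8 and 5 members had an unadjusted p under 0.05 (11.4% and 7.14%, against 20.9% and 16.2% of all genes).

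**Figure D3:**
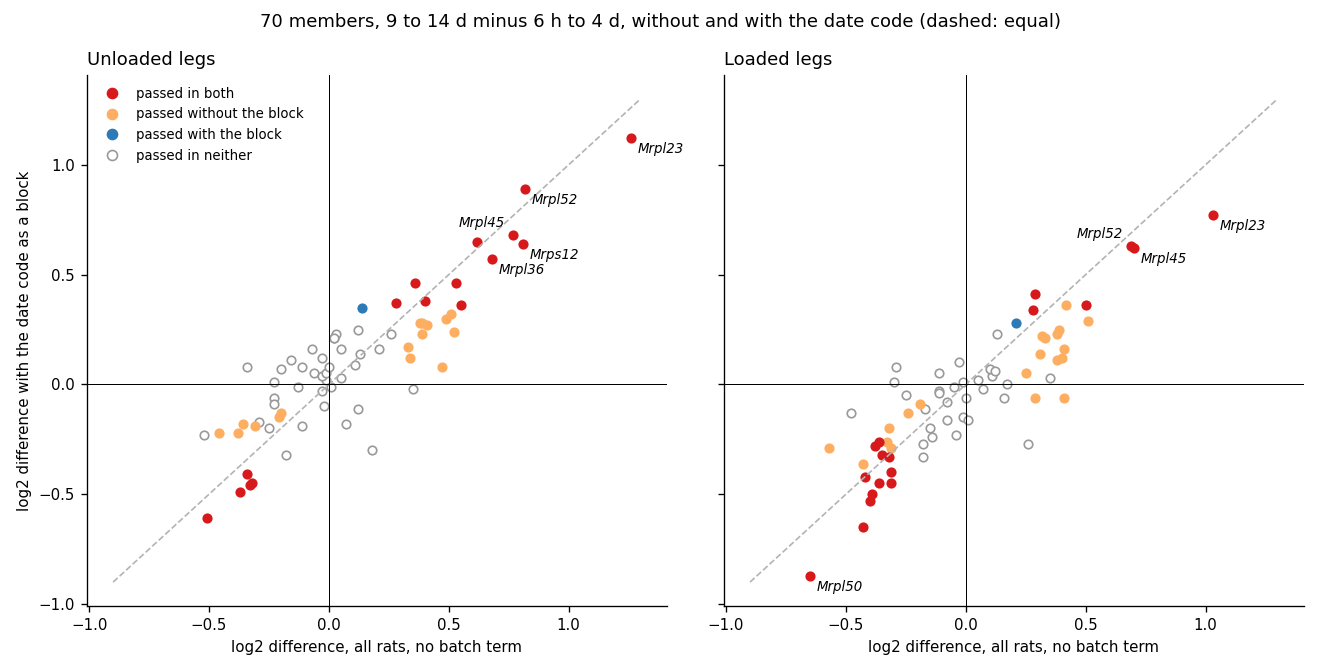
Log2 difference between 9 to 14 d and 6 h to 4 d for each of the 70 members without a batch term (horizontal axis) and with the date code as a block (vertical axis), in unloaded and loaded legs; the dashed line marks equality. Of the 32 and 38 members that passed without the block, 16 and 18 passed with it, and Mrpl23 is at the upper right in both panels.

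By subunit and origin, the members that passed were spread over all 4 classes. In unloaded legs at 9 to 14 d the large subunit had 11 higher and 8 lower of 46 (median 0.02), and the small subunit 10 higher and 3 lower of 24 (median 0.03). In loaded legs these were 10 higher and 12 lower (median -0.03) and 9 higher and 7 lower (median -0.02). Members with a bacterial homologue had 11 higher and 6 lower of 42 in unloaded and 9 higher and 12 lower in loaded legs. The mitochondrial class had 10 and 5 of 28 and 10 and 7. Over all genes 28.7% were higher and 16.9% lower in unloaded legs, and 29% and 15.2% in loaded legs. A block for the date code left 7 higher and 3 lower of the large, 5 and 2 of the small, 9 and 4 of the bacterial and 3 and 1 of the mitochondrial class in unloaded legs. With that block 15.3% of all genes were higher and 8.15% lower there.

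The 9 small-subunit proteins of the mitochondrial class had the highest class median, 0.33 in unloaded legs (5 higher, 1 lower) and 0.25 in loaded legs (5 higher, 3 lower), against 0.07 and 0.08 over all genes. None of these 9 passed in either leg with the date code as a block, and their medians were 0.08 and -0.06. The mean log2 level of all 70 members on an array was 8.79 to 9.18 at 6 h to 4 d and 8.97 to 9.18 at 9 to 14 d in unloaded legs. In loaded legs it was 8.90 to 9.13 and 8.95 to 9.11, so the windows overlapped in both legs.

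Several proteins are known for a particular role. Mrpl12, the homologue of the bacterial stalk protein that contacts translation factors, was -0.16 (SE 0.14, adjusted p 0.384) in unloaded and -0.30 (SE 0.15, adjusted p 0.0967) in loaded legs at 9 to 14 d. Mrpl3, whose bacterial homologue lies near the peptidyl transferase centre, was -0.25 (SE 0.11, adjusted p 0.0689) in unloaded legs and fell by 0.36 in loaded legs (SE 0.09, adjusted p 0.00169). Mrpl44, a large-subunit protein related to ribonuclease III, was -0.11 (SE 0.11) and 0.05 (SE 0.11), and Mrps16, with a bacterial homologue, -0.11 (SE 0.13) and -0.17 (SE 0.11). None of these 4 values of Mrpl44 and Mrps16 passed.

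The 3 Mrps18 paralogues are related to a single bacterial small-subunit protein, whose place Mrps18c takes, and in mammals Mrps18a joins the large subunit. Mrps18a fell by 0.21 in unloaded (SE 0.08, adjusted p 0.0276) and by 0.32 in loaded legs (SE 0.08, adjusted p 0.00197). Mrps18b was -0.15 (SE 0.12, adjusted p 0.34) in loaded legs and Mrps18c 0.01 (SE 0.09, adjusted p 0.915), and neither passed in unloaded legs. Whether the paralogues differ from each other was not tested.

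Other genes of mitochondrial translation were taken from lists. At 9 to 14 d, 28.7% of all genes were higher and 16.9% lower in unloaded legs, and 29% and 15.2% in loaded legs. The counts of each list stand beside these shares, and single named genes do not stand for their list. Of 5 mitoribosomal proteins with other names that were tested, 2 rose in each leg, Aurkaip1 (0.44 in unloaded and 0.36 in loaded legs) and Dap3 (0.35 and 0.20). After cyclic loess 2 of these 5 were higher and 1 lower in unloaded legs, and 0 higher and 1 lower in loaded legs. None passed in either leg once the date code was a block. Of 24 assembly factors tested, 4 rose and 1 fell in unloaded legs (median 0.03) and 3 rose and 3 fell in loaded legs (median -0.01). Nsun4, a methyltransferase of mitochondrial ribosomal RNA, rose by 0.52 (SE 0.11, adjusted p 0.000629) in unloaded legs. Eral1, a chaperone of the small-subunit ribosomal RNA, fell by 0.40 (SE 0.09, adjusted p 0.00117) in loaded legs.

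Of 13 translation factors tested, 2 rose and 3 fell in unloaded legs (median -0.10) and 2 rose and 5 fell in loaded legs (median -0.13). Mtfmt, which formylates the initiator methionyl-tRNA, rose by 0.93 (SE 0.17, adjusted p 0.000167) and 0.92 (SE 0.17, adjusted p 0.000119). Guf1, a GTPase related to elongation factors, fell by 0.62 (SE 0.14, adjusted p 0.00114) and 0.76 (SE 0.13, adjusted p 4.7e-05). Gfm1, the mitochondrial elongation factor G, fell by 0.47 (SE 0.11, adjusted p 0.0013) and 0.50 (SE 0.09, adjusted p 0.000194), and the initiation factor Mtif2 by 0.41 (SE 0.14, adjusted p 0.0218) and 0.38 (SE 0.13, adjusted p 0.0205).

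Of 11 mitochondrial tRNA synthetases tested, 0 rose and 1 fell in unloaded legs and 2 rose and 2 fell in loaded legs. Aars2 fell in both, by 0.29 (SE 0.10, adjusted p 0.0199) and 0.36 (SE 0.10, adjusted p 0.0045). Of 19 genes of mitochondrial DNA expression and biogenesis tested, 3 rose and 4 fell in unloaded and 3 rose and 5 fell in loaded legs. Gabpa, the DNA-binding subunit of GABP, rose by 0.38 (SE 0.13, adjusted p 0.0177) and 0.39 (SE 0.10, adjusted p 0.0035). Tfam, which packages mitochondrial DNA, rose by 0.57 (SE 0.13, adjusted p 0.00117) and 0.40 (SE 0.14, adjusted p 0.0226). Polrmt, the mitochondrial RNA polymerase, fell by 0.56 (SE 0.09, adjusted p 5e-05) and 0.45 (SE 0.09, adjusted p 0.000553). Ppargc1a, a coactivator known to promote mitochondrial biogenesis, fell by 1.07 in loaded legs (SE 0.41, adjusted p 0.0356) and was -0.64 (SE 0.50, adjusted p 0.305) in unloaded legs.

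Against these, cytosolic ribosomal protein genes rose nearly throughout. In unloaded legs 66 of 70 rose and 1 fell, with a median of 0.65, and in loaded legs 66 rose and 1 fell, with a median of 0.57. Rpl3 rose by 2.02 (SE 0.14, adjusted p 5.09e-10) and 2.12 (SE 0.20, adjusted p 6.05e-08). A block for the date code left 67 and 62 of the 70 higher. Nuclear genes of the respiratory chain and ATP synthase went the other way, with 38 lower and 2 higher of 73 in unloaded legs (median -0.35) and 51 lower and 2 higher in loaded legs (median -0.41). This became 12 lower and 5 higher (median -0.03) in unloaded and 27 lower and 2 higher (median -0.31) in loaded legs once the date code was a block. With that block 15.3% of all genes were higher and 8.15% lower in unloaded legs, and 12.9% and 7.14% in loaded legs. Ndufs7, a subunit of complex I, fell by 1.07 (SE 0.12, adjusted p 3.61e-07) and 1.06 (SE 0.11, adjusted p 1.53e-07), while Atp5if1, an inhibitor of the ATP synthase, rose by 1.11 in both. The 70 members, with medians of 0.02 and -0.03, lay between the 2 lists.

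**Figure D4:**
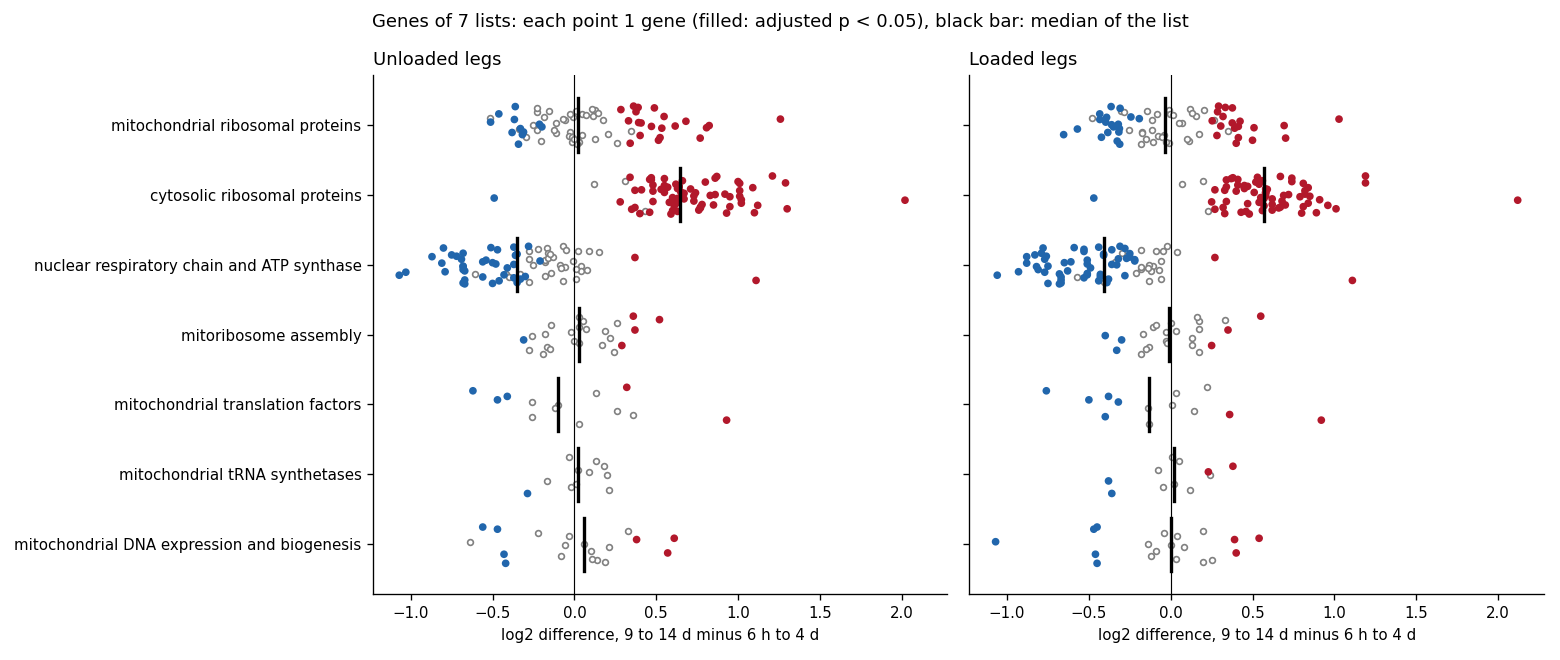
Log2 difference between 9 to 14 d and 6 h to 4 d for each gene (point) of 7 lists, in unloaded and loaded legs; filled points passed an adjusted p of 0.05 and black bars are medians. The median is 0.02 and -0.03 for the mitochondrial ribosomal proteins, 0.65 and 0.57 for the cytosolic ones and -0.35 and -0.41 for the respiratory chain and ATP synthase genes.

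Genes listed as cell type markers moved with the windows in the same arrays. Of all genes, 28.7% rose and 16.9% fell in unloaded legs at 9 to 14 d, and 29% and 15.2% in loaded legs. At 9 to 14 d, of 12 macrophage markers tested 6 rose in unloaded and 4 in loaded legs, and their mean level ran from 7.11 to 8.26 at 6 h to 4 d and from 7.49 to 9.74 at 9 to 14 d in unloaded legs. All 3 satellite cell markers tested, Myf5, Myod1 and Mymk, rose in both legs, from 6.80 to 7.94 up to 9.01 to 9.91 in unloaded legs. Pax7 and Calcr were also listed, but Pax7 was not measured and Calcr did not pass the filter. Which cells expressed the 3 genes was not tested, so their rise does not count satellite cells. Of 11 muscle fibre markers 6 fell in each leg, from 12.83 to 13.58 down to 12.80 to 13.25 in unloaded legs. Of 9 fibroblast markers 3 fell in unloaded and 2 in loaded legs, and of 6 endothelial markers 3 and 2. Of 7 adipocyte markers 1 fell in unloaded and 0 in loaded legs. With the date code as a block, 7 and 1 macrophage markers were higher, 2 and 2 satellite cell markers higher, 4 and 4 fibre markers lower, 0 and 0 fibroblast markers and 0 and 1 endothelial markers lower. The shares of all genes with that block were 15.3% higher and 8.15% lower in unloaded legs, and 12.9% and 7.14% in loaded legs. At 5 to 8 d 7 fibroblast markers fell in unloaded and 4 in loaded legs, and their mean level ran from 7.82 to 9.79 at 6 h to 4 d and from 7.52 to 7.86 at 5 to 8 d in unloaded legs. None of the 9 fibroblast markers passed there with the date code as a block. The part of these markers in the members' changes was not tested.

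Passive loading was compared between the legs of each rat. Over all 23 rats 1 member of 70 passed, against 2.9% of all genes (269 of 9289). Mrpl34, a large-subunit protein with a bacterial homologue, was lower in the loaded leg by 0.15 on average (difference -0.15, SE 0.04, adjusted p 0.0349), a 1.11-fold difference, and was lower in 21 of 23 rats. Its leg differences ran from -0.29 over a median of -0.10 to -0.01 at 6 h to 4 d, where all 13 rats were lower. The 4 rats of 5 to 8 d had -0.40, -0.28, -0.05 and 0.16, and at 9 to 14 d they ran from -0.57 over -0.05 to 0.01. The call was lost without rat 11, 17, 37, 45, 53, 55 or 59 in turn, with differences from -0.16 to -0.13 over all omissions. It was also lost without the rat block, without the 6 rats of uncertain pairing, without filter on low values and within date code 3.

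Mrpl55, with a bacterial homologue, and Mrps33, found only in mitochondrial ribosomes, came next and did not pass. Mrpl55 differed by -0.17 (SE 0.05, adjusted p 0.0688) and Mrps33 by -0.13 (SE 0.04, adjusted p 0.0798), each lower in 18 of 23 rats. With array quality weights 5 members passed over all rats, all lower in loaded legs, and the share of all genes with these weights is not given here. An unadjusted p under 0.05 was reached by 6 members (8.57%, against 18.6% of all genes).

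**Figure D5:**
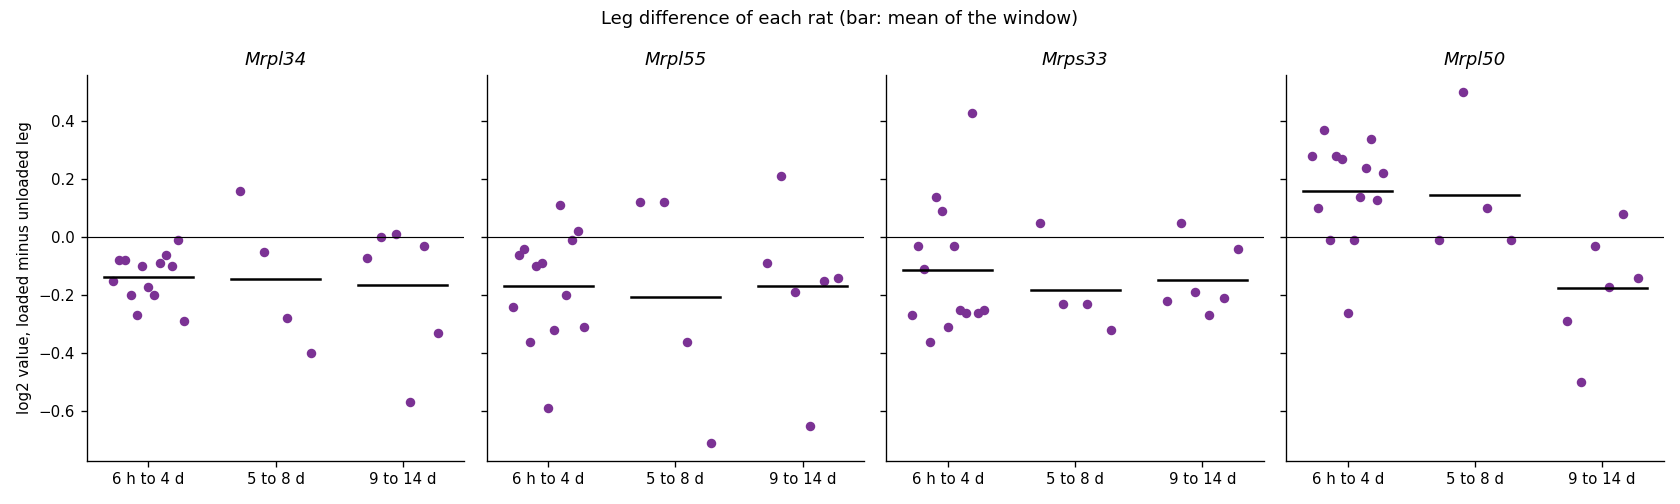
Difference in log2 value between the loaded and the unloaded leg of each rat (points) by window, with bars for window means, for Mrpl34, which passed over all rats, for Mrpl55 and Mrps33, which came next, and for Mrpl50. Mrpl34 is below 0 in all 13 rats of 6 h to 4 d, and Mrpl50 is above 0 in 10 of these 13 and below 0 in 5 of 6 rats at 9 to 14 d.

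Within windows 0 members passed. At 6 h to 4 d 0.0% of all genes passed and 9 members had an unadjusted p under 0.05 (12.9%, against 11.6% of all genes), led by Mrpl50 (0.16, SE 0.06, adjusted p 0.263; higher in 10 of 13 rats) and Mrps28 (0.15, SE 0.05, adjusted p 0.263; higher in 11 of 13). At 5 to 8 d 0.0% of all genes passed and 2 members reached that level (2.86%, against 6.93%), Mrps11 (-0.21, SE 0.09, adjusted p 0.651) and Mrpl12 (-0.25, SE 0.11, adjusted p 0.658), both lower in 4 of 4 rats. At 9 to 14 d 0.269% of all genes passed (25 of 9289) and 6 members reached it (8.57%, against 13% of all genes). Mrpl4 was -0.17 (SE 0.05, adjusted p 0.165), Mrpl18 -0.23 (SE 0.09, adjusted p 0.282) and Mrps15 -0.13 (SE 0.06, adjusted p 0.318), each lower in 6 of 6 rats. These members were named for the smallest p, so a shared sign in most rats comes with that choice, and none passed the adjustment over all genes. At 9 to 14 d Mrpl13, Mrpl16, Mrpl22, Mrpl47 and Mrpl48 were also lower in 6 of 6 rats. They were picked for that sign, and the share of all genes with it is not given here. With array quality weights 7 members passed at 5 to 8 d, and the share of all genes with these weights is not given here.

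The loading effect of the later windows was set against that of 6 h to 4 d. At 9 to 14 d 0 members and 0.0% of all genes passed, with 10 members at an unadjusted p under 0.05 (14.3%, against 7.72% of all genes). Mrpl50 had the smallest, with a difference between windows of -0.34 (SE 0.10, adjusted p 0.389), from a leg difference of 0.16 at 6 h to 4 d and a median over rats of -0.15 at 9 to 14 d. Mrpl18 (-0.32, SE 0.11, adjusted p 0.486) and Mrpl36 (-0.26, SE 0.09, adjusted p 0.551) followed. At 5 to 8 d 0 members and 0.0% of all genes passed and 0 members had an unadjusted p under 0.05 (limma), against 6.0% of all genes. Mrpl54 (-0.20, SE 0.10), Mrpl12 (-0.25, SE 0.13) and Mrps28 (-0.22, SE 0.11) had the smallest p there, each with an adjusted p of 0.855. The median over the 70 members was -0.07 and -0.06 for these comparisons, against -0.00 and 0.01 over all genes.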

How the data were processed

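Messenger RNA of both gastrocnemius muscles of 23 rats was measured on 46 single-colour arrays, 1 per leg. The deposited log2 values were made by the authors with RMA (version not stated), per the submitters' processing notes; RMA corrects background, normalises between arrays and summarises probes. Of 26208 probe sets, 15088 had 1 gene symbol, 323 several and 10797 no listed gene, and only the first kind was named. A probe set was kept when it exceeded the median of its array on at least 4 arrays, and each gene used its brightest kept probe set over all arrays, which left 9289 genes. Arrays give no read depth, so their number limits the precision.

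Every comparison used limma 3.58.1 under R 4.3.3, with moderated statistics (eBayes) and Benjamini-Hochberg adjustment over 9289 genes at a threshold of 0.05. Windows were compared over the 23 arrays of a leg. Legs were compared over 46 arrays with the rat as a block, and loading effects as differences of leg differences. The rat behind a pair was read from consecutive leg numbers in the labels. The deviations of paired legs from their group means correlated above 0.1 in 21 of 23 pairs (median 0.60), with 0.08 for rat 17 and -0.35 for rat 27. In 15 of 23 rats the closest loaded leg to an unloaded leg was that of the same rat, and in 13 the reverse held. Rats 17, 19, 21, 23, 27 and 51, where neither held, are the 6 rats of uncertain pairing. In window comparisons p-values measure the spread between rats within a leg. In leg and loading effect comparisons they measure how far the leg difference varies between rats. The fit was tested on simulated data.

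Named were the 10 largest rises and 10 largest falls that passed in unloaded legs at 9 to 14 d, the 3 largest each way in other window comparisons, the members that passed or had the smallest p between legs, and members of known role. Of other lists up to 4 genes with the largest changes were named, and Gabpa and Fau beside them after their values were seen. Mrpl20 shares a probe set with Ankrd65 and was not analysed here. Motifs were searched in RefSeq promoter windows of build GRCr8. Members, gene lists and subunit classes were chosen with earlier results of these data known. Alternatives were the filter, cyclic loess scaling, array quality weights, other probe sets, left-out rats, date code blocks and subsets, and the fit without the rat block.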

Additional observations from a re-analysis of the deposited data

Results flagged for a closer look

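Among 36 named members, each with 4 groups of 4 or 6 arrays (144 groups in all), 4 held an array far from the rest of its group by Dixon's test. By chance this marks about 1 in 20 groups. For Mrpl9 the loaded leg 44 at 5 to 8 d read 8.29, with the next array at 8.57 and the highest at 8.61. For Mrps12 the unloaded leg 41 at 5 to 8 d read 9.03 (next 9.76, highest 9.87), and the loaded leg 52 at 9 to 14 d read 8.76 (next 9.55, highest 9.78). For Mrps16 the loaded leg 60 at 9 to 14 d read 8.39 (next 8.68, highest 8.84). All 4 were the lowest arrays of their groups, and they came from 4 different rats.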

How the results depend on the processing

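Counts below are members that passed (limma, adjusted p under 0.05). With the date code as a block they were 17 and 19 at 9 to 14 d and 6 and 9 at 5 to 8 d, in unloaded and loaded legs, and within date code 3 alone 7 and 5 and then 0 and 0. Of the single results, 35 kept direction and side of the threshold with the date code block and 19 lost the call. Array quality weights gave 41 and 42 members at 5 to 8 d and 12 and 1 between the later windows. They gave 7 for legs at 5 to 8 d, 5 for legs over all rats and 3 for the loading effect at 5 to 8 d. Shares over all genes with these weights are not given here, so these counts are not read as a result about the members. The single member that passed between legs over all rats was lost (0 members) without the filter, without rats 35 and 37, within date code 3, without the 6 rats of uncertain pairing and in the unpaired analysis without the rat block. Leaving out single rats gave 0 to 2 members between legs over all rats, 12 to 25 in unloaded legs at 5 to 8 d, 0 to 3 (unloaded) and 0 to 1 (loaded) between the later windows, 18 to 31 in loaded legs at 5 to 8 d, 27 to 36 (unloaded) and 32 to 41 (loaded) at 9 to 14 d, and 0 in the other leg comparisons. The highest counts between the later windows came without rat 43 (3) and rat 45 (1). Without rats 35 and 37 the counts were 38 and 43 at 9 to 14 d and 29 and 33 at 5 to 8 d. Date code 5 alone, chosen after seeing the data, gave 0 members. With the next brightest probe set the counts in loaded legs were 39 at 9 to 14 d and 26 at 5 to 8 d. The stricter filter left all 4 counts against 6 h to 4 d as they were. Why the counts moved with date code and weights was not tested. Group size limits what can be seen, with 4 rats at 5 to 8 d, and the signal over background was not given with these values.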
